A study of Arabidopsis thaliana with 27 samples.

Results

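TUB6 (AT5G12250) and SPR1 (AT2G03680) are the 2 microtubule genes among the 181 named genes of a small Arabidopsis thaliana array. They were found by name in the platform annotation, which gives each of them 1 probe out of 576. TUB6 encodes a beta-tubulin, and SPR1 encodes SPIRAL1, a small plant protein that sits on microtubules. Both were taken by name and not by a measured value, but earlier results of these data were known.

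Microtubules are hollow tubes built from dimers of alpha-tubulin and beta-tubulin, and plants carry several genes for each subunit. In growing plant cells the cortical microtubules beneath the plasma membrane guide where cellulose is laid down. SPIRAL1 gathers at growing microtubule ends, and plants without it twist as they elongate, because the cortical array is tilted.

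The 27 arrays measured leaf RNA of 4-week-old plants infiltrated with bacteria. CBP60g and CBP60h (also called SARD1) are transcription factors that switch on salicylic acid synthesis. PAD4 resembles lipases and acts in defence upstream of salicylic acid. The study, by its title, asked how far CBP60g and CBP60h stand in for each other there. Col-0 was the wild type. The mutants were cbp60h, pad4-1, a double mutant (cbp60g cbp60h) and a triple mutant (cbp60g cbp60h pad4). The labels name an allele for pad4-1 when it stands alone and no allele for the other mutations. Leaves received either Pseudomonas syringae pv. tomato DC3000 hrcC, which lacks a working type III secretion system, or Pseudomonas syringae ES4326, called Psm in the labels. Leaves taken 9 h after hrcC gave 3 arrays of cbp60h (sets 1 to 3) and 2 arrays of every other genotype (sets 1 and 2). Leaves taken 24 h after Psm gave 3 arrays of every genotype but cbp60h (sets 1 to 3). Leaves taken 24 h after hrcC gave 1 array of each of those 4 genotypes, all in set 3. A set is 1 experiment in the labels, and leaves of 3 pots, 2 from each plant, made up 1 sample. No uninfected leaf was measured, so every level below is that of an infiltrated leaf. Fewer cells that express a gene and less RNA per cell cannot be told apart in such pooled leaf samples.

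Levels are the deposited log2 brightness values, where the base 2 was read from the range of the values and every fold below rests on it. Medians over all probes ran from 3.90 to 4.53 between arrays. The genes altered in the mutants are not among the named probes, so the genotypes were not checked. None of the 19 listed markers of leaf cell types was among the named probes, so the tissue was not checked either. Of 32 microtubule genes listed, TUB6 and SPR1 were the 2 measured. None of 8 actin genes was. TUB6 is 1 of 9 beta-tubulin genes on that list, and SPR1 is 1 of 6 genes of its own family. No probe sequence was at hand, so binding of RNA from the close relatives cannot be told apart from the named gene. The gene AT5G12240 overlaps TUB6 and the long non-coding RNA gene AT2G04545 overlaps SPR1 in the TAIR10.1 table, and the strand that each probe reads is not given.

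TUB6 was lowest in Col-0 leaves with Psm and highest in the triple mutant with hrcC at 24 h. In Col-0 with Psm it stood at 4.02, 4.48 and 4.45 in sets 1, 2 and 3. The double mutant with Psm had 4.89, 4.79 and 4.30, and pad4-1 with Psm had 4.78, 5.20 and 5.23. In the triple mutant with Psm TUB6 was at 5.78, 5.92 and 6.04, above every other Psm array. The Psm arrays of Col-0 and the double mutant overlap, as do those of the double mutant and pad4-1.

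At 9 h after hrcC the genotypes were mixed in order. TUB6 levels in sets 1 and 2 were 5.93 and 6.51 (Col-0), 6.37 and 5.61 (double mutant), 6.09 and 5.72 (pad4-1) and 6.09 and 6.62 (triple mutant). The cbp60h mutant had 5.74, 5.98 and 5.71 in sets 1 to 3. These groups overlap, and the order of the genotypes in set 1 is not that in set 2. At 24 h after hrcC the single arrays read 5.75 for Col-0, 5.90 for the double mutant, 6.56 for pad4-1 and 7.17 for the triple mutant, which is the order of the Psm means.

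**Figure D1:**
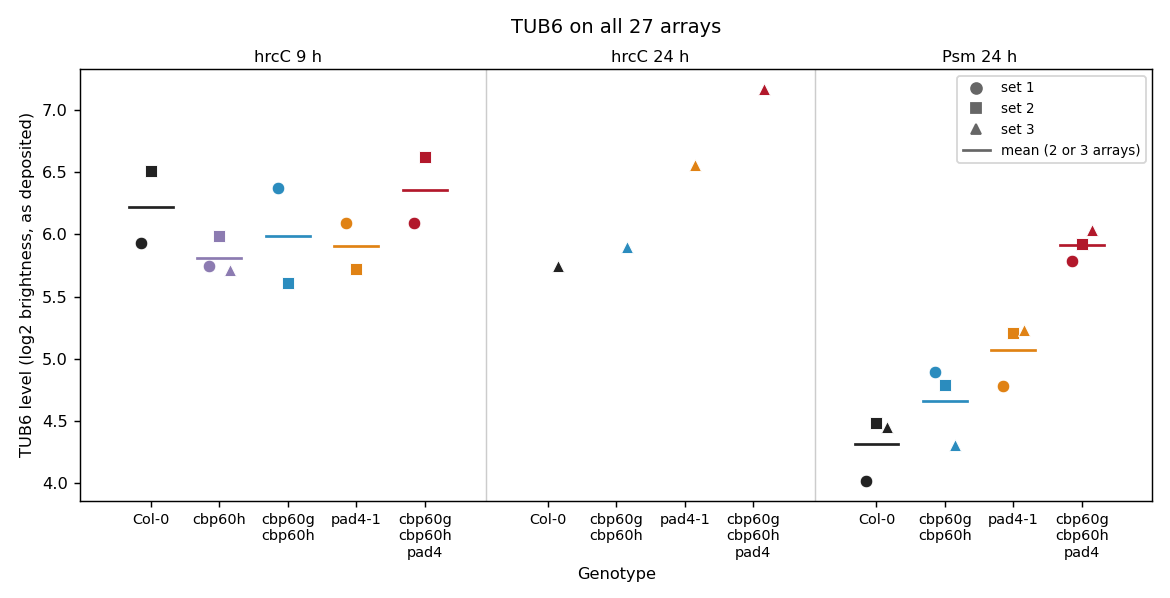
TUB6 level (log2 brightness, vertical axis) on each of the 27 arrays, by genotype within hrcC 9 h, hrcC 24 h and Psm 24 h; marker shape gives the set and a horizontal line the mean of groups with 2 or 3 arrays. The Psm arrays rise from Col-0 (4.02 to 4.48) to the triple mutant (5.78 to 6.04), while the 5 genotypes overlap at hrcC 9 h.

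Ordered by mean, the 13 groups of TUB6 fell from 7.17 (triple mutant, hrcC 24 h) to 4.32 ± 0.26 (SD, n = 3; Col-0, Psm). Of the 12 steps between neighbours, 8 were smaller than the residual SD of TUB6 between replicate arrays (0.29). The 4 larger steps were those below the triple mutant with hrcC at 24 h (0.61), below Col-0 with hrcC at 24 h (0.67), below pad4-1 with Psm (0.41) and below the double mutant with Psm (0.35). Between the first and the second of these steps lay the other hrcC groups and the triple mutant with Psm (5.92 ± 0.13, SD, n = 3). Sorting keeps neighbours close, so this run is not 1 level. Its ends, the single arrays of pad4-1 (6.56) and Col-0 (5.75) with hrcC at 24 h, were 0.81 apart. The other 3 Psm groups were the lowest: 5.07 ± 0.25 in pad4-1, 4.66 ± 0.32 in the double mutant and then Col-0.

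SPR1 moved over a narrower range than TUB6, 1.42 against 3.15 on the log2 scale, with about the same residual SD (0.29 for each gene). It was highest in Col-0 with Psm, at 6.80, 6.00 and 6.57 in sets 1, 2 and 3. The double mutant with Psm had SPR1 levels of 5.51, 6.16 and 5.76, pad4-1 6.27, 6.39 and 5.75, and the triple mutant 6.08, 5.63 and 6.00. All 3 mutants overlap Col-0 because of the Col-0 array of set 2.

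After hrcC at 9 h SPR1 stood at 5.38 and 5.74 (Col-0), 5.85 and 6.22 (double mutant), 5.89 and 5.74 (pad4-1) and 5.86 and 5.47 (triple mutant). The cbp60h arrays had 5.85, 5.77 and 5.54. At 24 h after hrcC SPR1 was at 5.71 for Col-0, 5.72 for the double mutant, 6.38 for pad4-1 and 5.55 for the triple mutant, so that the pad4-1 array stood above the other 3. None of the 12 steps between the ordered group means of SPR1 exceeded its residual SD. Sorting by these same values keeps neighbours close, so small steps do not show that the groups are alike. The means ran from 6.46 (Col-0, Psm) to 5.55 (triple mutant, hrcC 24 h, 1 array).

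**Figure D2:**
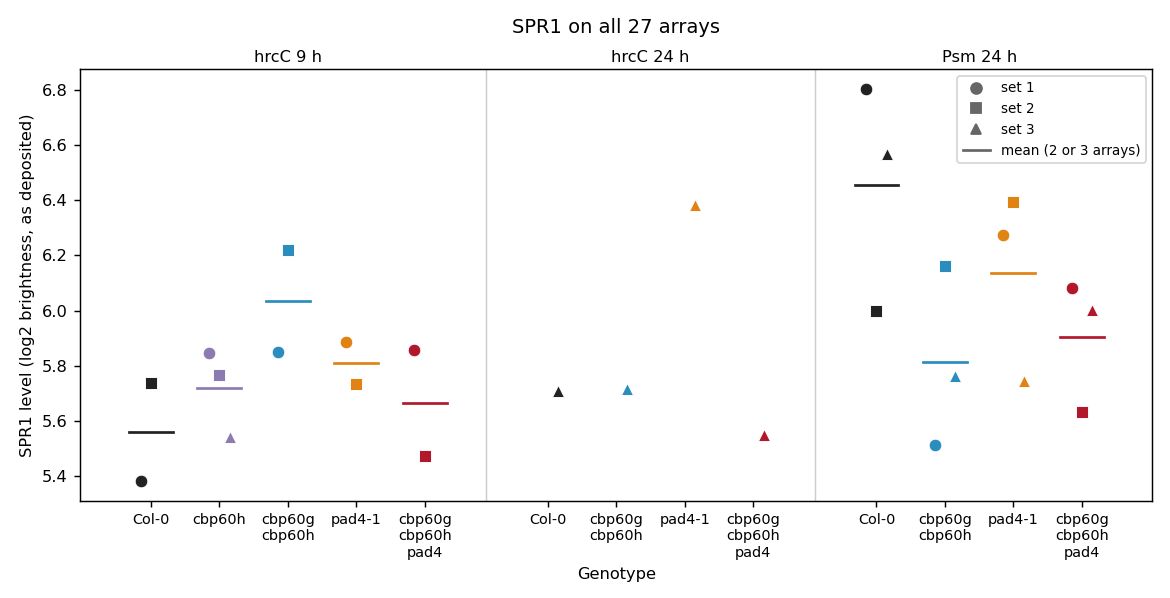
SPR1 level (log2 brightness, vertical axis) on each of the 27 arrays, by genotype within hrcC 9 h, hrcC 24 h and Psm 24 h; marker shape gives the set and a horizontal line the mean of groups with 2 or 3 arrays. Col-0 with Psm holds the highest array (6.80) and also a low one (6.00), and its range overlaps those of the 3 mutants with Psm.

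The first question was whether the levels under Psm depend on CBP60g, CBP60h and PAD4. TUB6 rose in the triple mutant against Col-0 by 1.60 (SE 0.24, adjusted p = 3.68e-05), a 3.02-fold difference. The rise was 1.77, 1.44 and 1.58 within sets 1, 2 and 3. It was the 6th largest among 181 genes, whose median difference was -0.13. In this comparison 9.94% of the genes were called higher at an adjusted p under 0.05, and 12.2% had all mutant arrays above all Col-0 arrays, as TUB6 did. The triple mutant arrays were dimmer by their median over all probes (4.07 to 4.38 with Psm) than those of Col-0 (4.41 to 4.48). The part of array brightness in the TUB6 difference was not tested. The rise was called without each of the 6 arrays (1.45 to 1.68) and in all 8 alternative settings (1.56 to 1.81). SPR1 differed by -0.55 in the same comparison (95% interval -1.05 to -0.05, adjusted p = 0.083), and its difference was -0.72, -0.37 and -0.57 within the 3 sets. That was the 53rd lowest difference of the 181 genes, of which 44 were called lower. With 1 array left out in turn SPR1 ran from -0.78 (without the Col-0 array of set 2, called, adjusted p = 0.0208) to -0.38 (without that of set 1, adjusted p = 0.303). It was nearer to 0 after quantile normalization (-0.21, adjusted p = 0.57), re-centring on all probes (-0.34, adjusted p = 0.343) and re-centring on named genes (-0.40, adjusted p = 0.266).

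TUB6 was also higher in the triple mutant than in the double mutant or pad4-1 under Psm. Against the double mutant TUB6 rose by 1.25 (SE 0.24, adjusted p = 0.000636), where 7.73% of genes were called higher and 11% did not overlap. Against pad4-1 it rose by 0.84 (SE 0.24, adjusted p = 0.0145), where 6.08% were called higher and 9.94% did not overlap. The second call was lost without the pad4-1 array of set 1 (0.70, adjusted p = 0.082) or the triple mutant array of set 3 (0.78, adjusted p = 0.0623). SPR1 differed by 0.09 (interval -0.41 to 0.59) and by -0.23 (interval -0.73 to 0.27) in these comparisons, neither called.

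Loss of PAD4 alone, or of CBP60g and CBP60h alone, gave smaller TUB6 differences that did not pass the test. In pad4-1 TUB6 differed from Col-0 by 0.75 (interval 0.25 to 1.26, adjusted p = 0.112), where 2.76% of genes were called. All 3 pad4-1 arrays were above all 3 Col-0 arrays, as was the case for 8.84% of genes, and the difference was 0.76, 0.72 and 0.78 within the 3 sets. In the double mutant TUB6 differed by 0.35 (interval -0.16 to 0.85, adjusted p = 0.472), where 6.63% of genes were called, and the set values of 0.88, 0.31 and -0.15 do not share a sign. This difference was 0.18 after re-centring on named genes and 0.20 after quantile normalization, and it ran from 0.20 (without the Col-0 array of set 1) to 0.53 (without the double mutant array of set 3). The double mutant and pad4-1 differed from each other by -0.41 (interval -0.92 to 0.10), where 1.1% of genes were called. The triple mutant exceeded the sum of both separate effects by 0.50 (interval -0.22 to 1.21, adjusted p = 0.44, with 5.52% of genes called), and it was not called. It was 0.81 to 0.83 after the 3 other scalings (adjusted p from 0.207 to 0.256) and ran from 0.32 to 0.65 with arrays left out, lowest without the double mutant array of set 3. For SPR1 it was 0.41 (interval -0.30 to 1.12), and up to 0.74 after re-centring on named genes. Neither gene's departure was called in any setting.

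SPR1 in the double mutant under Psm differed from Col-0 by -0.64 (interval -1.14 to -0.14, adjusted p = 0.146). The set values were -1.29, 0.16 and -0.80, so set 2 went the other way. With 1 array left out in turn the difference ran from -0.87 (without the Col-0 array of set 2, called, adjusted p = 0.0482) to -0.47 (without that of set 1, adjusted p = 0.384). With array quality weights it was -0.40 (adjusted p = 0.373). In pad4-1 SPR1 differed by -0.32 (interval -0.82 to 0.18), with -0.53, 0.39 and -0.82 in the sets.

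**Figure D3:**
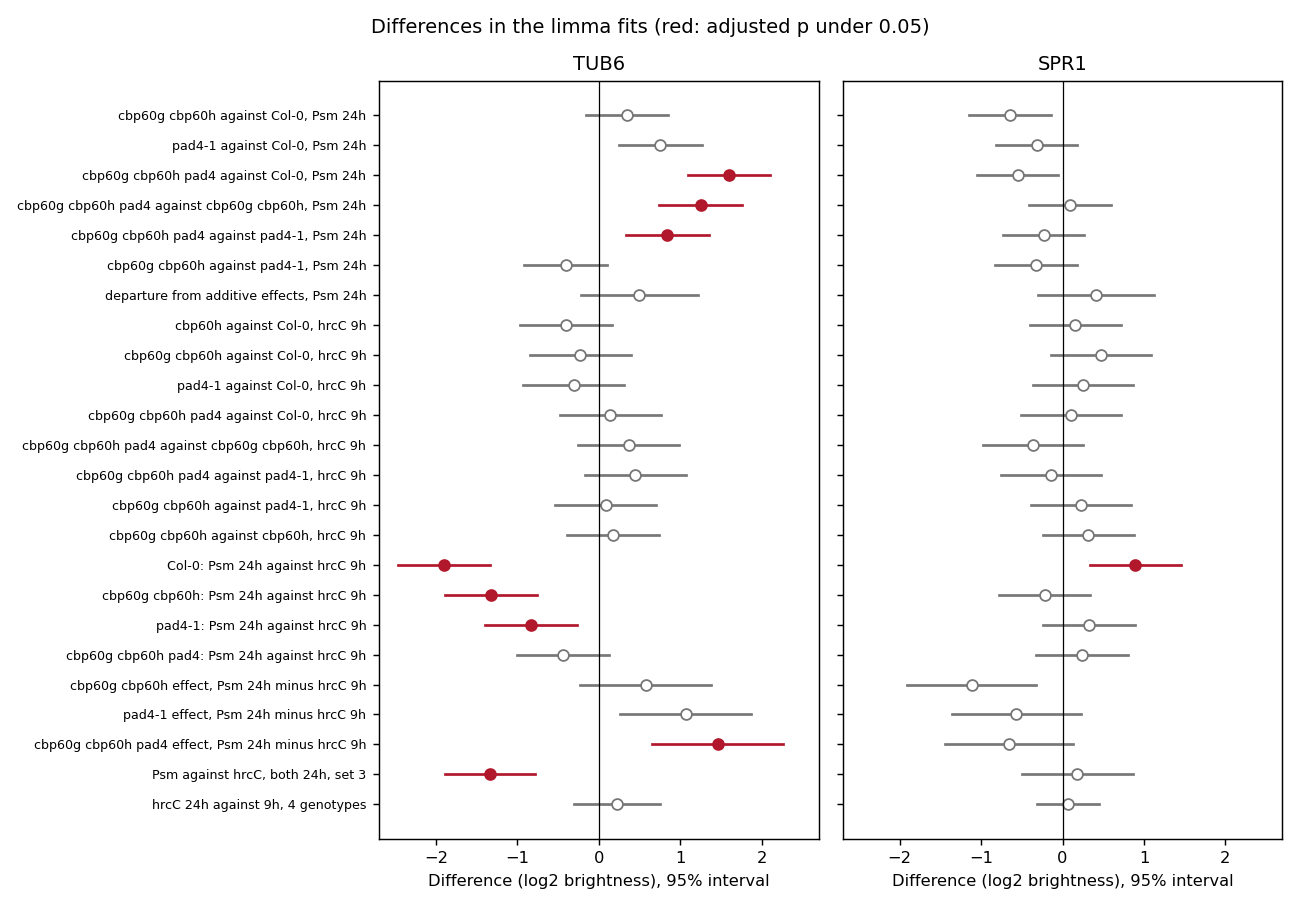
Differences of TUB6 (left) and SPR1 (right) in 24 comparisons, in log2 brightness on the horizontal axis, with 95% intervals that are not adjusted for multiple comparisons; filled red points have an adjusted p under 0.05. TUB6 has 8 red points, at positive values for the triple mutant under Psm and for its effect under Psm minus that after hrcC, and at negative values for Psm against hrcC, and SPR1 has 1, for Psm 24 h against hrcC 9 h in Col-0.

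At 9 h after hrcC no difference between genotypes was called for either gene. TUB6 differed from Col-0 by -0.41 in cbp60h (interval -0.97 to 0.16), by -0.31 in pad4-1 (interval -0.93 to 0.31), by -0.23 in the double mutant (interval -0.85 to 0.39) and by 0.14 in the triple mutant (interval -0.48 to 0.76). With 1 array left out the cbp60h value ran from -0.70 to -0.11 and the pad4-1 value from -0.60 to -0.018, the lower value without the Col-0 array of set 1 and the higher without that of set 2. The upper bound for the triple mutant, 0.76, lies below its difference under Psm, 1.60, but strain and time both differ there. That bound is not adjusted and is no test between the conditions. In set 3 the triple mutant stood above Col-0 by 1.42 with hrcC at 24 h (1 array each). SPR1 differed from Col-0 by 0.16 in cbp60h, 0.25 in pad4-1, 0.47 in the double mutant and 0.11 in the triple mutant, with adjusted p-values from 0.618 to 0.941. For SPR1 both double mutant arrays were above both Col-0 arrays, as for 14.9% of genes. Over all genes, limma called 13.8%, 0%, 0% and 6.63% of the genes in these 4 comparisons. Between the mutants TUB6 differed by 0.37 (triple against double mutant), 0.45 (triple mutant against pad4-1), 0.08 (double mutant against pad4-1) and 0.18 (double mutant against cbp60h), where 0.552%, 0.552%, 0% and 24.9% of genes were called. SPR1 differed by -0.37, -0.15, 0.22 and 0.31 in the same order, and in the last its arrays did not overlap, as for 24.3% of genes.

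The second question was how leaves with Psm at 24 h differ from leaves with hrcC at 9 h. The Col-0 arrays were brighter by their median over all probes with Psm (4.41 to 4.48) than with hrcC at 9 h (4.21 to 4.27). TUB6 fell in Col-0, the double mutant and pad4-1. In Col-0 it fell by 1.90 (SE 0.27, adjusted p = 3.99e-05), a 3.73-fold difference and the 5th largest fall of 181 genes, of which 10.5% were called lower and 21.5% lay below without overlap. In the double mutant it fell by 1.33 (SE 0.27, adjusted p = 0.000842), where 9.94% of genes were called lower and 18.8% did not overlap. In pad4-1 it fell by 0.84 (SE 0.27, adjusted p = 0.0241), where 11.6% were and 20.4% did not overlap, and the call was lost without the set 1 array of either treatment (-0.65, adjusted p = 0.179, without hrcC, and -0.69, adjusted p = 0.0855, without Psm). In the triple mutant the difference was -0.44 (interval -1.01 to 0.12, adjusted p = 0.265, with 26.5% of genes called in either direction), although its 3 Psm arrays all lay below its 2 hrcC arrays, as for 17.7% of genes. That value was -0.78 after quantile normalization (adjusted p = 0.0601) and -0.72 after re-centring on all probes (adjusted p = 0.0604). It was -0.71 without the hrcC array of set 1 and -0.18 without that of set 2. The pad4-1 fall was also larger after quantile normalization (-1.26).

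SPR1 rose between these conditions in Col-0, by 0.90 (SE 0.27, adjusted p = 0.0145), where 22.7% of genes were called higher and 34.3% lay above without overlap. The difference was 1.42 in set 1 and 0.26 in set 2. It was not called without the set 1 array of hrcC (0.72, adjusted p = 0.113) or of Psm (0.72, adjusted p = 0.0614), after quantile normalization (0.34, adjusted p = 0.41) or after re-centring on all probes (0.69, adjusted p = 0.0799). SPR1 differed by 0.33 in pad4-1, -0.22 in the double mutant and 0.24 in the triple mutant, none of them called.

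The response of TUB6 was also compared between genotypes directly. The effect of the triple mutant was 1.46 larger under Psm at 24 h than after hrcC at 9 h (SE 0.38, adjusted p = 0.0369), with 2.21% of genes called higher. With 1 array left out in turn, that call held in only 2 of 10 fits (range 1.17 to 1.75). It held in 4 of 8 alternative settings. For pad4-1 the corresponding difference was 1.06 (interval 0.26 to 1.87, adjusted p = 0.544, with 0.552% of genes called) and for the double mutant 0.57 (interval -0.23 to 1.37, with 0% called). For SPR1 the same differences were -0.57 in pad4-1, -1.12 in the double mutant (interval -1.91 to -0.33, adjusted p = 0.187) and -0.66 in the triple mutant. These 3 comparisons share the Col-0 arrays, and strain and time change together in each of them.

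Set 3 separates strain from time, since both strains were sampled there at 24 h. TUB6 was lower with Psm than with hrcC in all 4 genotypes, by 1.29 (Col-0), 1.59 (double mutant), 1.32 (pad4-1) and 1.13 (triple mutant). The common difference was -1.33 (SE 0.25, adjusted p = 0.00299), where 8.84% of genes were called lower and 14.4% were lower in all 4 genotypes. It was called without any 1 genotype (-1.40 to -1.25) and in all 4 alternative settings (-1.77 to -1.33). The triple mutant, whose difference from hrcC at 9 h was -0.31 in set 1 and -0.70 in set 2, thus had a Psm difference in set 3 near that of the other genotypes. With 1 array per genotype and strain, a difference of this effect between genotypes has no replicate and was not tested. The elongation factor gene AT5G60390, 1 of 5 listed housekeeping genes and the 1 measured, was also lower with Psm in set 3, by 1.16 (SE 0.29, adjusted p = 0.014). Between hrcC at 9 h and Psm it fell by 1.49 in Col-0 (adjusted p = 0.021) and by 1.51 in the triple mutant (adjusted p = 0.022). Its differences of -0.54 in the double mutant (adjusted p = 0.381) and -0.82 in pad4-1 (adjusted p = 0.195) were not called. Under Psm the triple mutant differed from Col-0 by 0.04. Its part in the TUB6 result was not tested.

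The common strain difference of SPR1 in set 3 was 0.18 (interval -0.50 to 0.86) and was not called. Its single differences were 0.86 (Col-0), 0.047 (double mutant), -0.64 (pad4-1) and 0.45 (triple mutant). They run in both directions.

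**Figure D4:**
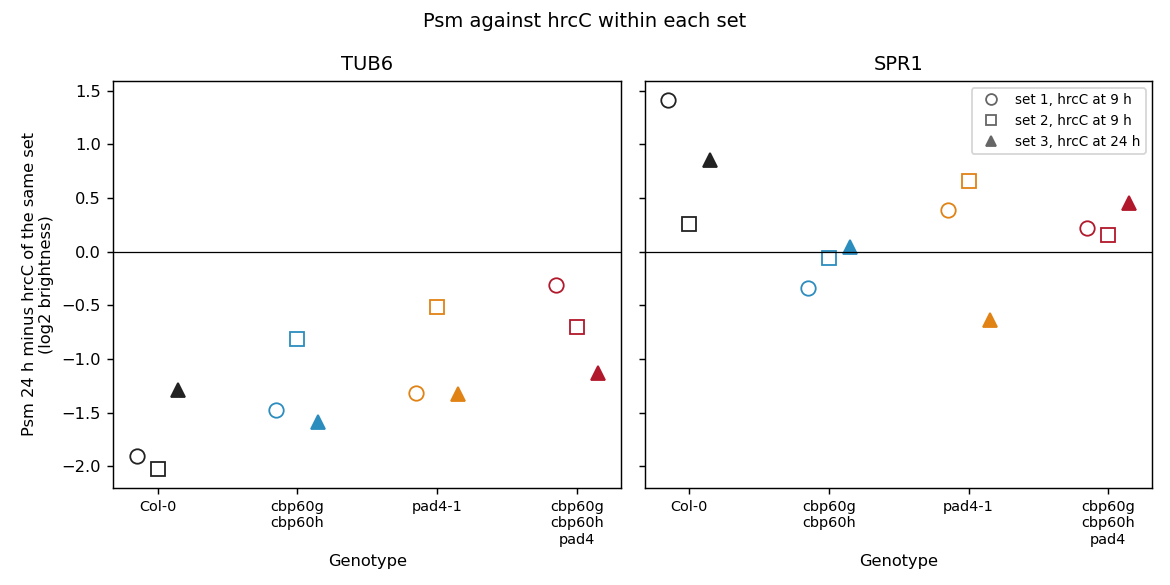
Psm 24 h minus hrcC of the same set (log2 brightness, vertical axis) for TUB6 (left) and SPR1 (right) in 4 genotypes; open markers are sets 1 and 2 with hrcC at 9 h, and filled triangles are set 3 with hrcC at 24 h. TUB6 is below 0 in all 12 pairs, and its set 3 values lie between -1.59 and -1.13, while SPR1 falls on both sides of 0.

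Between 9 h and 24 h after hrcC neither gene had a called difference over the 4 genotypes. TUB6 differed by 0.22 (interval -0.30 to 0.75, adjusted p = 0.611) and SPR1 by 0.07 (interval -0.31 to 0.45, adjusted p = 0.832), where 2.21% of genes were called. All 24 h arrays are in set 3 and all 9 h arrays of these genotypes are in sets 1 and 2, so time and set cannot be told apart. The cbp60h arrays, taken at 9 h in each set, had TUB6 at 5.71 in set 3 against 5.74 and 5.98 in sets 1 and 2.

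After the values had been seen, the lines were also compared by what they lack. Under Psm TUB6 was higher by 1.00 in the 2 lines without PAD4 than in the 2 lines with it (SE 0.17, adjusted p = 0.000196), where 6.63% of genes were called higher. It was higher by 0.59 in the 2 lines without CBP60g and CBP60h than in the 2 lines with them (SE 0.17, adjusted p = 0.0164), where 6.08% were. This second call was lost without the set 1 array of Col-0 (0.52, adjusted p = 0.0569) or of pad4-1 (0.52, adjusted p = 0.0561). The 0.59 averages 0.35 in the double mutant against Col-0 (not called) and 0.84 in the triple mutant against pad4-1 (called). Likewise the 1.00 averages 0.75 in pad4-1 against Col-0 (not called) and 1.25 in the triple against the double mutant (called). At 9 h after hrcC the TUB6 difference by PAD4 status was 0.03 (interval -0.41 to 0.47), with 0% of genes called. By CBP60g and CBP60h status it was 0.11 (interval -0.33 to 0.55), with 0.552% called.

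At 24 h after hrcC the difference by PAD4 was 1.04 for TUB6, from 1 array of each of 4 genotypes, and it was not called. Without replicate arrays, the spread in that fit comes from the departure of the genotypes from additive effects. The levels of these arrays had been seen before the comparison was chosen. The change from 9 h to 24 h after hrcC was larger by 1.02 without PAD4 than with it (interval 0.14 to 1.89, adjusted p = 0.697), not called either, with 0% of genes called. The difference by CBP60g and CBP60h was 0.38 for TUB6 at 24 h after hrcC, from the same 4 arrays, and it was not called. SPR1 differed by PAD4 status by -0.11 under Psm, -0.06 at 9 h and 0.25 at 24 h after hrcC. By CBP60g and CBP60h status SPR1 differed by -0.44 under Psm (interval -0.79 to -0.08, adjusted p = 0.0798), 0.16 at 9 h and -0.41 at 24 h after hrcC.

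TUB6 and SPR1 tended to move in opposite ways. Over the 27 arrays their Pearson correlation was -0.51 (Spearman -0.38), and TUB6 had the 3rd lowest correlation to SPR1 of all named genes. Over the 9 replicated groups' means it was -0.73, within groups -0.29 (23 arrays), among the 15 hrcC arrays -0.09 and among the 12 Psm arrays -0.44. The arrays share genotypes, strains and sets, so these values describe them and carry no test.

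Of all named genes AT3G13950 was most opposite to TUB6, with a correlation of -0.90 over the 27 arrays and -0.95 over the 9 group means. The mean level of AT3G13950 in Col-0 was 4.39 after hrcC at 9 h and 6.93 with Psm, and in the triple mutant it was 2.87 and 3.53. The next most opposite were AT5G60800 (-0.88), which encodes a protein with a heavy-metal-associated domain, and AT1G68620 (-0.87). The genes most like TUB6 were AT3G12390 (0.78), the chitinase gene AT2G43620 (0.77) and the peroxidase gene AT5G64120 (0.74). Correlations within groups were 0.47, 0.20 and 0.06 for these genes, and -0.45, -0.29 and -0.08 for the 3 most opposite. AT3G12390 differed by -0.79 with Psm against hrcC in set 3 (adjusted p = 0.0558). In the triple mutant against Col-0 under Psm it differed by 0.62 (adjusted p = 0.108). Both AT2G43620 and AT5G64120 fell with Psm against hrcC in set 3, with differences of -5.19 and -3.53, but neither was called in the triple mutant against Col-0 under Psm, where they differed by 0.48 (adjusted p = 0.373) and 0.35 (adjusted p = 0.399).

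The genes most like SPR1 had lower correlations, at 0.52 for ATG8E, whose product coats autophagosomes, 0.51 for the C2-domain gene AT4G00700 and 0.51 for ARA6, a Rab GTPase of endosomes. Their correlations within groups were 0.06, 0.04 and 0.15, so replicate arrays of a group hardly moved together. The most opposite besides TUB6 were AT4G22470 (-0.61) and the splicing factor gene ATU2AF65A (-0.54).

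**Figure D5:**
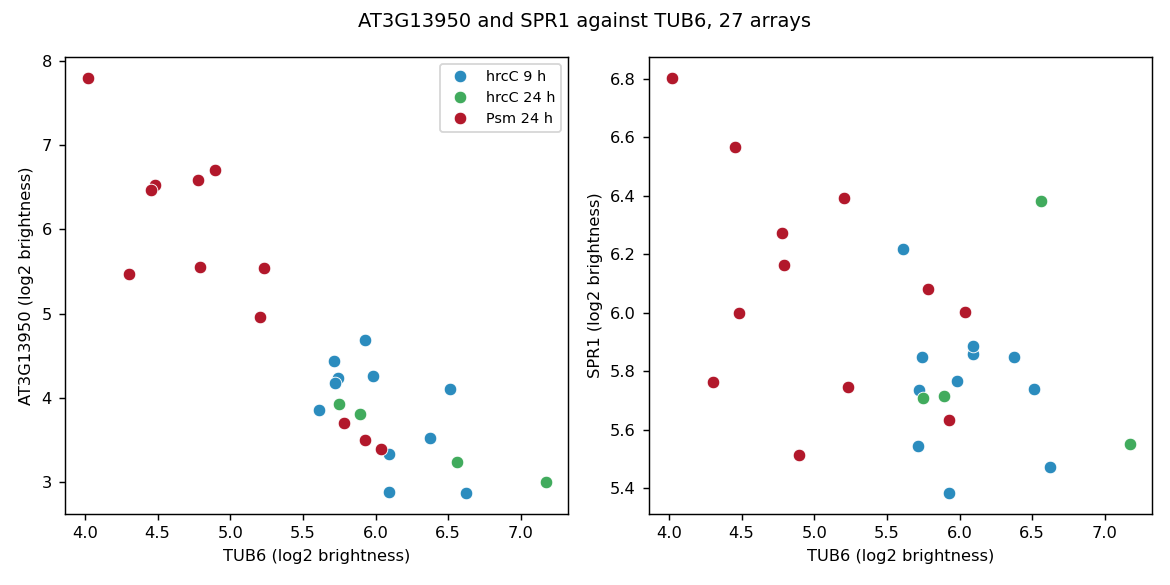
AT3G13950 (left) and SPR1 (right) against TUB6 on the 27 arrays, all axes in log2 brightness, coloured by strain and time. AT3G13950 falls as TUB6 rises (correlation -0.90), while SPR1 is spread widely at every TUB6 level (-0.51).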

How the data were processed

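The series' value table holds 576 probes on 27 one-colour arrays (dye Alexa555, per the labels' protocols). The log2 intensity values were used as the authors deposited them. The sources used here do not give the log base, scanner, background correction or normalization. Of the probes, 181 have 1 gene name in the platform annotation, which can be old, and all 181 matched the TAIR10.1 gene table, used for names only.

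Groups with replicates (9 groups, 23 arrays) were fitted jointly, each with its own mean, by lmFit and eBayes of limma 3.58.1 under R 4.3.3, with two-sided tests and Benjamini-Hochberg adjustment over the 181 genes in each of 24 comparisons. An adjusted p under 0.05 was called. Every adjusted p is from limma. Strain in set 3 (8 arrays) and time after hrcC (12 arrays) were fitted with genotype as an additive term. Comparisons by PAD4 and by CBP60g and CBP60h status were added later. The test was also run on simulated data, whose outcome is not reported here.

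The set is a shared experiment in the labels. Deviations from group means correlated at 0.14 between arrays of the same set and at -0.08 between sets, over 181 genes. No 2 arrays held identical values. The number of arrays limits the precision, and the labels do not say whether plants of a set were grown apart, so p-values measure the spread between these samples.

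TUB6 and SPR1, the gene lists and the tests were chosen with earlier results of these data known. Besides both genes, the measured members of the lists (microtubule, actin, housekeeping, cell type markers) and the 3 genes most and 3 least correlated with each were named. Alternatives were 3 scalings, all probes, a filter on dim genes, fewer arrays in the fit, the set as a block, array weights and leaving out arrays.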

Additional observations from a re-analysis of the deposited data

Results flagged for a closer look

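The effect of the triple mutant on TUB6 differed by 1.46 on the log2 scale (adjusted p = 0.0369, limma). With 1 array left out in turn, this call held in only 2 of 10 fits. The effect was 1.60 under Psm at 24 h and 0.14 after hrcC at 9 h, so strain and time change together in this difference. The triple mutant was above Col-0 in 3 of 3 sets under Psm and in 2 of 2 sets at 9 h after hrcC. In set 3, with hrcC at 24 h, it was above Col-0 by 1.42 after hrcC and by 1.58 with Psm.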

How the results depend on the processing

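With the set as a replicate block no call for TUB6 or SPR1 changed: the TUB6 rise in the triple mutant under Psm was 1.60 (adjusted p = 5.52e-05) and the SPR1 rise in Col-0 between treatments 0.94 (adjusted p = 0.0126). Re-centring or quantile normalization moved the median difference of all genes by -0.39 to 0.33. The TUB6 effect of the triple mutant between treatments was not called after quantile normalization (1.44), re-centring on named genes (1.38), with only the compared arrays (1.46) or with array weights (1.42). With arrays left out it ran from 1.17 to 1.75 and was called in only 2 of 10 fits. The SPR1 rise in Col-0 was not called after quantile normalization (0.34), re-centring on all probes (0.69), with only the compared arrays (0.90) or with array weights (0.81), and ran from 0.72 to 1.12 with arrays left out. The causes were not tested.

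Of 51 differences that were not called, 42 moved by over 1.5 times or turned sign in some setting, and 3 were called in some setting. Of 11 that were called, 2 moved by over 1.5 times: SPR1 between treatments in Col-0 and TUB6 between treatments in pad4-1. Among those not called, these turned sign. After quantile normalization SPR1 differed between treatments by -0.091 in pad4-1 and -0.10 in the triple mutant (-0.033 and -0.035 after re-centring on all probes), and TUB6 of the double mutant against pad4-1 at 9 h by -0.026. SPR1 of the triple mutant against pad4-1 was 0.010 under Psm and 0.012 at 9 h after re-centring on all probes, and against the double mutant under Psm -0.0081 with array weights. SPR1 by strain in set 3 was -0.15, -0.10 and -0.15 after quantile normalization and re-centring on named genes or all probes. SPR1 by PAD4 status was 0.10, 0.042 and 0.015 under Psm and 0.061, 0.090 and 0.088 at 9 h after the same scalings.

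With arrays left out, TUB6 ran from 0.70 to 0.92 in the triple mutant against pad4-1 under Psm, from -1.02 to -0.65 between treatments in pad4-1 and from 0.52 to 0.68 by CBP60g and CBP60h status under Psm. At 9 h it ran from -0.61 to 0.15 (double mutant against Col-0), -0.15 to 0.43 (triple against Col-0), -0.016 to 0.75 (triple against double), -0.30 to 0.46 (double against pad4-1), -0.20 to 0.56 (double against cbp60h), -0.16 to 0.22 (PAD4 status) and -0.081 to 0.30 (CBP60g and CBP60h status). SPR1 under Psm ran from -0.87 to -0.47 (double against Col-0), -0.78 to -0.38 (triple against Col-0), -0.058 to 0.27 (triple against double) and -0.55 to -0.35 (CBP60g and CBP60h status). At 9 h SPR1 ran from -0.019 to 0.34 (cbp60h against Col-0), -0.088 to 0.30 (triple against Col-0), -0.34 to 0.047 (triple against pad4-1) and -0.15 to 0.038 (PAD4 status). It ran from -0.046 to 0.45 by strain in set 3 and from -0.10 to 0.20 by time after hrcC. Where an array left out leaves 1 in its group, that array is taken to vary like the other groups. The brightness over background is not given, so its limit on low values is unknown here.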
